A study of Macaca mulatta with 24 samples.

Results

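The genes described here encode nuclear subunits of the mitochondrial respiratory chain and ATP synthase (complexes I to V) in omental white adipose tissue (WAT) of the rhesus macaque. They were chosen by symbol alone. A gene of the counts table was a member when its symbol was NDUFA, NDUFB, NDUFC, NDUFS or NDUFV followed by a number, was SDHA, SDHB, SDHC or SDHD, or began with UQCR, ATP5 or one of the COX prefixes from COX4 to COX8. The NDUFAF assembly factors were left out. The rule found 49 of the 32386 genes in the table, of which 23 belong to complex I, 4 to complex II, 4 to complex III, 7 to complex IV and 11 to complex V. All 49 members passed the filter on low counts and were tested among 15207 genes. A further 22 subunit symbols, COX5B, COX8A, NDUFV2 and UQCRQ among them, and the 13 mitochondrially encoded subunits were not analysed here. The symbol decided the complex, so that NDUFA4, now known as a subunit of complex IV, is counted with complex I, and ATP5IF1, an inhibitor of ATP synthase, with complex V.

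Biopsies came from 24 female animals, 6 in each of 4 groups. Controls (C) carried cholesterol implants and ate monkey chow, T animals carried testosterone implants and ate chow, WSD animals carried cholesterol implants and ate a high-fat Western-style diet, and T+WSD animals had the testosterone implants together with that diet. The labels give an age of 4 years for every animal and a treatment of 3 years, while the methods of the paper give a higher age. Each animal contributed 1 library, and the animals are the replicates. Because a piece of whole tissue was sequenced, fewer cells of a type and less RNA per cell cannot be told apart in any of the values below.

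The respiratory chain passes electrons from NADH (complex I) and succinate (complex II) through ubiquinone, complex III and cytochrome c to oxygen at complex IV, and ATP synthase (complex V) uses the resulting proton gradient to make ATP. White adipocytes store lipid in one large droplet and carry fewer mitochondria than brown adipocytes, in which the uncoupling protein UCP1 lets the gradient run down as heat. Most subunits are encoded in the nucleus and are known to be transcribed under shared regulators, including the nuclear respiratory factors, ESRRA and the coactivator PPARGC1A.

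Between 6899185 and 28270776 reads were counted per library (median 20630512.5), and no 2 libraries were identical. In 8 libraries, 2 in each group, a single gene took 9.92 to 54.7% of the counts, against 0.879 to 2.51% in the other 16. These 8 libraries are treated as a batch below. They were set apart by a share over 5% alone, and the labels name no batch. Of the adipocyte markers listed, 14 of 16 were tested. Their summed level, in CPM (counts normalized by TMM and scaled to a common library total), ran from 12680 to 34060 CPM in the T, WSD and T+WSD animals, and in C from 2979 in animal 1 to 23930. The mesothelial list (11 of 15 markers tested) moved with the groups, with summed levels of 3215 to 41130 CPM in C, 3135 to 18570 in T, 887.5 to 6660 in WSD and 305.9 to 3465 in T+WSD. Animal 1 of C had both the lowest adipocyte and the highest mesothelial level.

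The chain subunits varied together from animal to animal. Each library was scored by the mean log2 deviation of the members from each gene's mean over the 24 animals. This level ran from -0.71 to 0.13 (median 0.00) in C, from -0.36 to 0.43 (median -0.05) in T, from -0.15 to 0.88 (median 0.20) in WSD and from -0.23 to -0.09 (median -0.21) in T+WSD. The 6 T+WSD animals lay close together and below 0, the WSD animals spread upwards, and the ranges of all 4 groups overlapped.

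**Figure D1:**
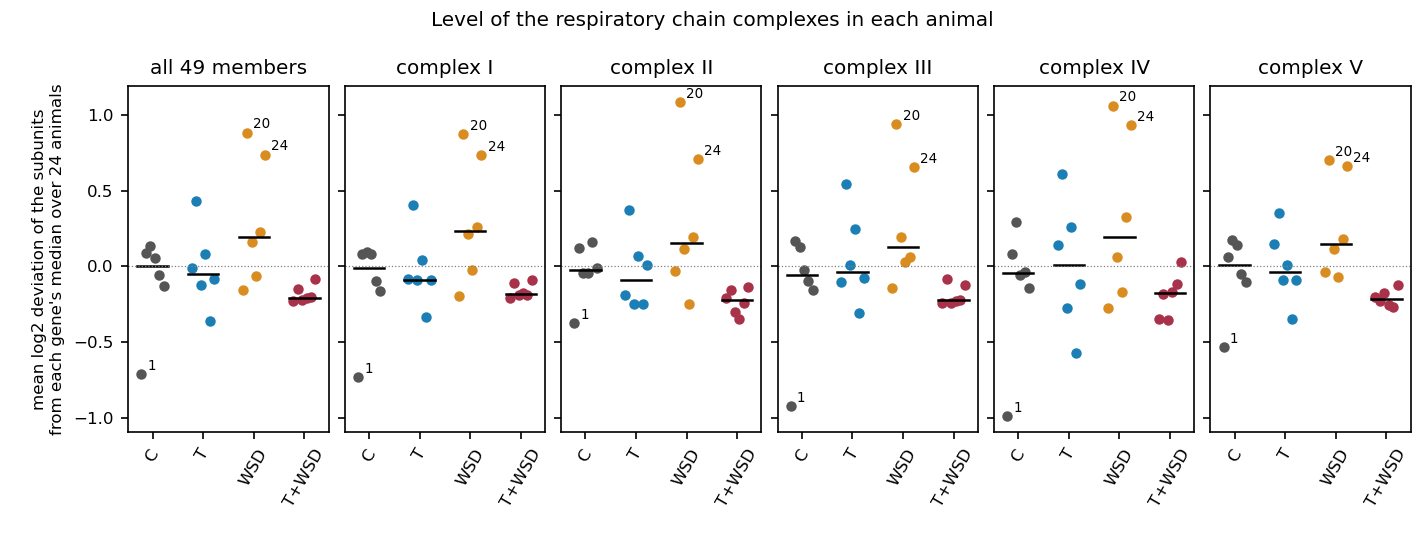
Each point is 1 animal, placed by group on the x axis, for all 49 members and for each complex. The y axis gives the mean log2 deviation of its subunit genes from each gene's mean over 24 animals, although the axis label names the median. Black lines are group medians (n = 6). WSD animals 20 and 24 stand highest in all 6 panels, C animal 1 stands lowest, and the T+WSD animals cover only 0.14 on the log2 scale over all members, against 1.04 in WSD.

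A few animals, WSD 20, WSD 24 and C 1, stood apart from the rest of their groups, and the counts of members that passed are given with and without them. WSD animals 20 and 24 were the 2 highest of all 24 animals in 43 of the 49 members, an order found in 3.76% of all tested genes. Relative to each member's median over the other 22 animals, the median ratio was 2.09 for animal 20 and 1.75 for animal 24, whereas the same ratio over all tested genes was 0.983 and 1.02. C animal 1 was the lowest of the 24 in 36 members (16.7% of all genes), with a median ratio to the other 23 animals of 0.603 over members and 0.999 over all genes. WSD 20 and C 1 belong to the 8 libraries with a dominant gene and WSD 24 does not.

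Values of other cells in these animals are as follows, and their part in the subunit levels was not tested beyond the fits named below. The summed adipocyte level was 34060 CPM in WSD 20, 26050 CPM in WSD 24 and 2979 CPM in C 1. WSD 20 was the highest of all animals, with WSD 21 next at 34020 CPM. The summed mesothelial level was 1570 CPM in WSD 20, 6600 CPM in WSD 24 and 41130 CPM in C 1.

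The 6 members that did not place WSD 20 and 24 on top were NDUFA4L2, UQCRB, UQCRH, COX7A2, ATP5IF1 and ATP5MC2. At the other end COX5A, a nuclear subunit of complex IV, was at 2.86 times the median of the others in WSD 20, at 2.59 times in WSD 24 and at 0.276 times in C 1. NDUFS1, which holds iron-sulfur clusters of complex I, was at 2.503, 2.33 and 0.479 times that median. ATP5IF1 and ATP5PF, a stalk subunit of ATP synthase, stood nearest to their medians in these 2 WSD animals, at 1.055 and 1.2 times in WSD 20 and 1.151 and 1.198 times in WSD 24.

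**Figure D2:**
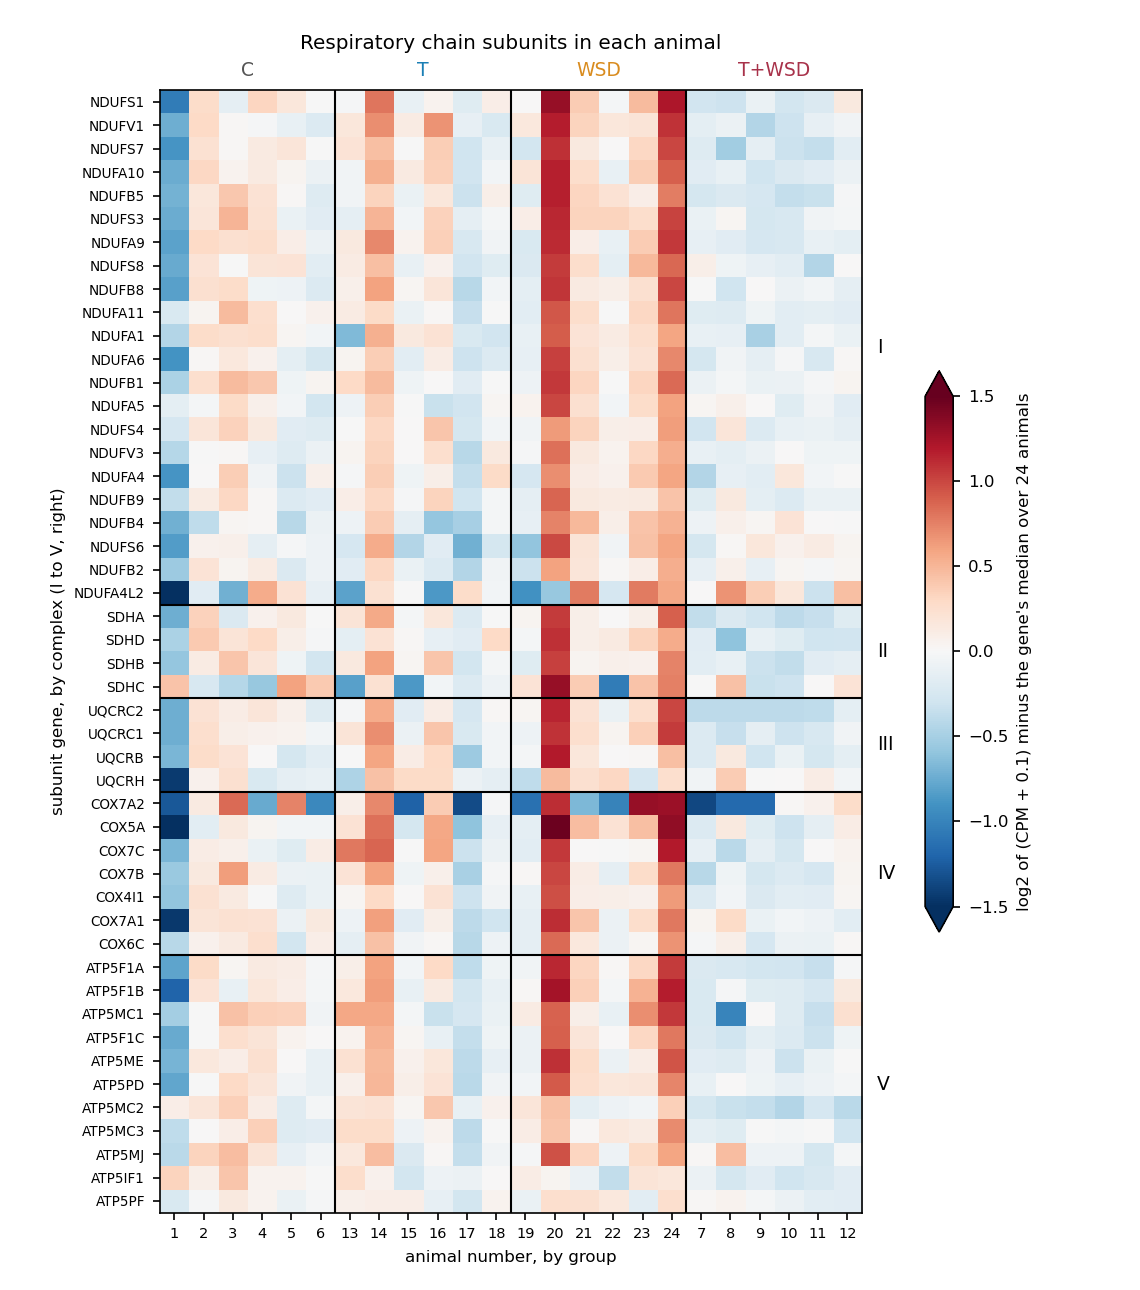
Colours give log2(CPM + 0.1) of 48 members (rows, by complex I to V) minus its median over 24 animals, for every animal (columns, by group and animal number), with the colour scale ending at 1.5. WSD animals 20 and 24 form red columns through nearly all members, C animal 1 a blue column, and the 6 T+WSD animals are mostly pale blue, in keeping with their mean levels of -0.23 to -0.09.

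The spread between animals also differed by group. The median SD of the members on the log2 scale was 0.119 in T+WSD, 0.355 in C, 0.291 in T and 0.468 in WSD. Over all tested genes the medians were 0.225, 0.337, 0.292 and 0.333 in the same order. The spread was smallest in T+WSD for 48 of the 49 members, compared with 50.2% of all genes. These are descriptions of 6 animals per group, and no test was made of the spreads.

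Western-style diet alone was compared with C. No member passed in WSD at an adjusted p of 0.05 (edgeR quasi-likelihood test with Benjamini-Hochberg adjustment over all genes), where 0% of all tested genes was higher. At an unadjusted p under 0.05, 30 members were higher and 0 lower, against 9.59% of all genes higher. The estimate was positive in 48 of 49 members, with a median log2 fold change of 0.44 (all genes, -0.02). No member had its 6 WSD animals all above the 6 C animals, a pattern held by 0.230% of genes.

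These estimates rested largely on the 3 animals that stood apart. Without WSD 20 and 24 the median over members was 0.12, with 2 members higher at an unadjusted p under 0.05, and without C 1 as well it was 0.04, with 1. With the adipocyte level as a covariate the median was 0.20, with 5 members higher at an unadjusted p under 0.05, and with the mesothelial level it was 0.39, with 19. No member passed in these fits (edgeR), nor did any gene. How many of all genes were under the unadjusted threshold was not counted in them. In the 16 libraries without a dominant gene, which include WSD 24, the median was 0.28, and in the 8 libraries with one it was 0.76. The sign was the same in both sets, but the 8 libraries hold WSD 20 and C 1. Neither set was free of the animals that stood apart, so this does not show the direction without them. Without all 3 animals 33 estimates were positive and 16 negative. The median over members shrank towards that of all genes once the animals standing apart were removed.

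COX5A had the largest estimate in WSD. Its level was 25.3, 86.8 and 99.2 CPM in C (lowest, median and highest animal) and 80.6, 123 and 248.5 CPM in WSD, so the groups overlapped. The log2 fold change was 0.94 ± 0.30 (SE, 6 against 6 animals, edgeR quasi-likelihood adjusted p = 0.144), and without WSD 20 and 24 it was 0.46 ± 0.28 (adjusted p = 0.475, edgeR). The catalytic beta subunit of ATP synthase, ATP5F1B, came next at 0.72 ± 0.23 (adjusted p = 0.144, edgeR), followed by NDUFV1, the NADH-binding subunit of complex I, at 0.68 ± 0.20 (adjusted p = 0.135, edgeR).

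NDUFB4, an accessory subunit of complex I, and NDUFV3, a small subunit next to the NADH-binding site, shared the smallest adjusted p of 0.131 (edgeR), with log2 fold changes of 0.62 ± 0.16 and 0.47 ± 0.13. DESeq2 called 3 members higher, NDUFB4 (adjusted p = 0.0216), NDUFV3 (0.0333) and NDUFV1 (0.0465), beside 0.751% of all genes, and 0 members without WSD 20 and 24 (smallest adjusted p = 0.136). By complex the medians in this comparison (edgeR) were 0.47 for I, 0.37 for II, 0.48 for III, 0.49 for IV and 0.39 for V, and without WSD 20 and 24 they were 0.16, 0.02, 0.15, 0.06 and 0.11. ATP5IF1 was the single member with a negative estimate, -0.15 ± 0.10 (adjusted p = 0.441, edgeR).

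**Figure D3:**
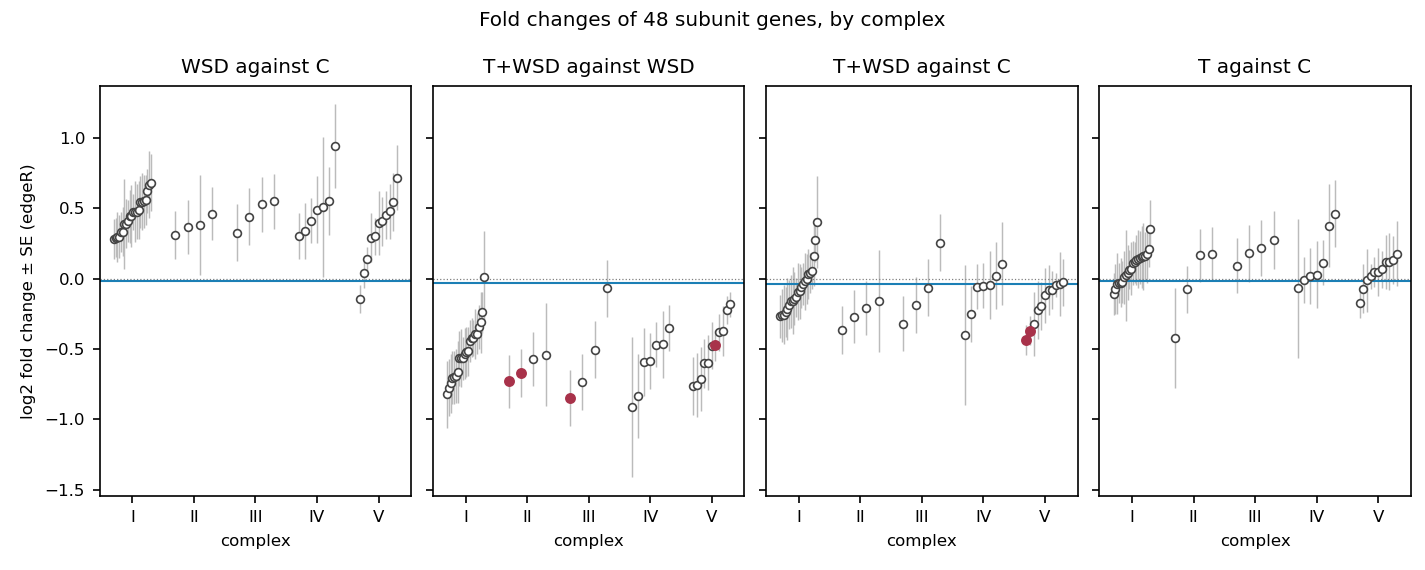
Points are log2 fold changes of 48 members with SE bars, by complex on the x axis, in 4 comparisons (edgeR, n = 6 per group); filled red points passed an adjusted p of 0.05 and the blue line is the median of all tested genes. Nearly all members lie above the line in WSD against C, where 0 passed, and below it in T+WSD against WSD, where the 4 filled points are SDHA, SDHD, UQCRC2 and ATP5MC2; in T+WSD against C the 2 filled points are ATP5MC2 and ATP5IF1.

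Adding testosterone to the diet was compared with the diet alone, and here 5 members were lower in T+WSD and 0 higher (edgeR adjusted p under 0.05), in a comparison in which 0.940% of all genes were called lower. Among them were SDHA and SDHD of complex II, UQCRC2 of complex III and ATP5MC2 of complex V. With a fold change over 1.5 as well, 4 members were called, ATP5MC2 not being one of them, beside 0.381% of all genes. At an unadjusted p under 0.05, 42 members were lower (12.1% of all genes), and the estimate was negative in 48 of 49, with a median of -0.57 (all genes, -0.03). The single positive estimate was that of NDUFA4L2 (0.01 ± 0.32).

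In 8 members every T+WSD animal lay below every WSD animal, a pattern held by 1.37% of all genes. Among them were NDUFS3, NDUFV1, SDHA, SDHD, UQCRC2, ATP5MC2 and ATP5MC3. For these genes the 6 WSD animals, and not only WSD 20 and 24, were above the highest T+WSD animal. By complex, the median log2 fold change was -0.53 for I, -0.62 for II, -0.62 for III, -0.59 for IV and -0.48 for V, and without WSD 20 and 24 it was -0.23, -0.29, -0.28, -0.17 and -0.22.

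UQCRC2 (ENSMMUG00000018287), a core protein of complex III, measured 191.1, 240.9 and 454 CPM in WSD and 155.4, 156.6 and 185.2 CPM in T+WSD. Of the 6 T+WSD animals, 5 lay between 155.4 and 157.9 CPM and animal 12 was at 185.2 CPM, still below every WSD animal. It fell by 0.85 ± 0.20 on the log2 scale (adjusted p = 0.0367, edgeR).

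In complex II, which also works in the citric acid cycle, the catalytic flavoprotein subunit SDHA (ENSMMUG00000014452) measured 228, 241 and 472.2 CPM in WSD and 172.6, 181.7 and 200.8 CPM in T+WSD. Its log2 fold change was -0.73 ± 0.19 (adjusted p = 0.0496, edgeR). The membrane anchor SDHD (ENSMMUG00000015247) measured 8.02, 9.71 and 17.6 CPM in WSD and 5.37, 6.99 and 7.62 CPM in T+WSD, with a log2 fold change of -0.67 ± 0.17 (adjusted p = 0.0455, edgeR). In both genes every T+WSD animal lay below every WSD animal. The iron-sulfur subunit SDHB did not pass, at -0.57 ± 0.19 (adjusted p = 0.103, edgeR), and SDHC had only 3 to 26 counts per library, so that a change was not detectable at this depth (-0.54 ± 0.36).

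ATP5MC2 (ENSMMUG00000016241) encodes 1 of the 3 copies of the proton-carrying c subunit of ATP synthase, whose mature proteins are the same. It measured 90.3, 105 and 135.3 CPM in WSD and 73.6, 78.6 and 83.8 CPM in T+WSD, with a log2 fold change of -0.48 ± 0.11 (adjusted p = 0.0343, edgeR). The other c-subunit genes did not pass, with -0.72 ± 0.23 for ATP5MC1 (adjusted p = 0.0894) and -0.38 ± 0.13 for ATP5MC3 (adjusted p = 0.1096, both edgeR). Their counts are uncertain where reads of such related genes could be assigned to more than 1 of them.

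**Figure D4:**
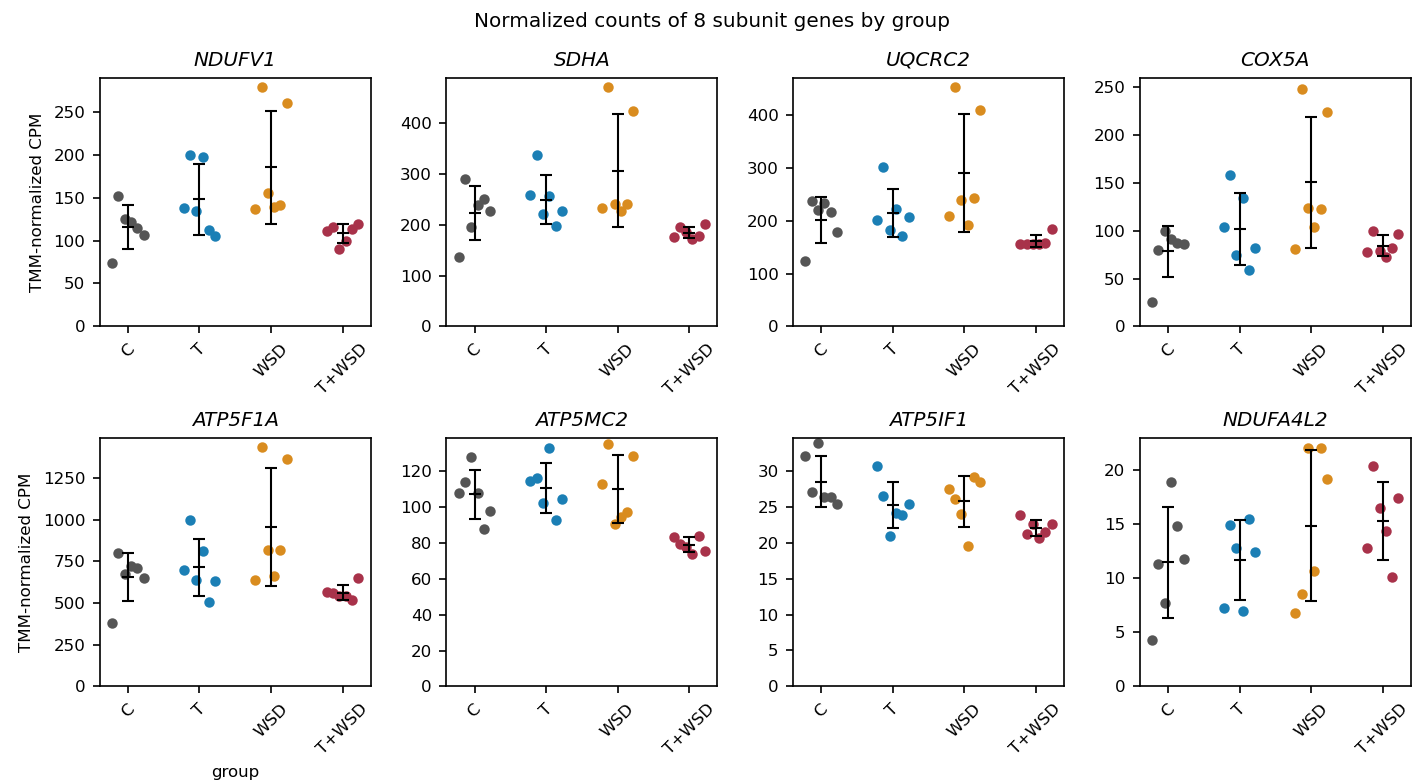
Points give TMM-normalized CPM of 8 members in each animal by group, with the mean and SD (n = 6) in black and axes starting at 0. In NDUFV1, SDHA, UQCRC2 and ATP5MC2 all T+WSD animals lie below all WSD animals; 2 WSD animals stand far above the others in NDUFV1, SDHA, UQCRC2, COX5A and ATP5F1A but not in ATP5IF1; NDUFA4L2 overlaps in all groups.

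Further members had large estimates without passing. The core subunit NDUFS1 was at -0.82 ± 0.24 (adjusted p = 0.0696), NDUFV1 at -0.78 ± 0.20 (0.0514), NDUFS7 at -0.74 ± 0.21 (0.0656) and NDUFS3 at -0.69 ± 0.19 (0.0601, all edgeR). Outside complex I, UQCRC1 of complex III was at -0.74 ± 0.20 (adjusted p = 0.0549), the alpha subunit ATP5F1A at -0.77 ± 0.21 (0.0549) and the beta subunit ATP5F1B at -0.76 ± 0.23 (0.0782, all edgeR). No complex IV member passed. COX5A was at -0.84 ± 0.30 (adjusted p = 0.120) and COX4I1, which carries a regulatory nucleotide site, at -0.47 ± 0.16 (adjusted p = 0.103, both edgeR), while COX7A2 had the most negative estimate of all members with the widest error (-0.91 ± 0.50, adjusted p = 0.315, edgeR).

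The 5 calls depended on the animals used. Without WSD 20 and 24 no member passed, nor did any of the 15528 genes tested in that fit. The median over members was -0.23, with 12 members lower at an unadjusted p under 0.05 and 48 of 49 estimates still negative. How many of all genes were under that threshold was not counted in this fit. UQCRC2 was then at -0.45 ± 0.16 (adjusted p = 0.312), SDHD at -0.40 ± 0.15 (0.326), SDHA at -0.36 ± 0.15 (0.399) and ATP5MC2 at -0.33 ± 0.10 (0.287, all edgeR). Without C 1 as well, 0 members and 0 genes passed and the median over members was -0.22.

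The median was -0.47 in the 16 libraries without a dominant gene, which still hold WSD 24. There 39 members were lower at an unadjusted p under 0.05 and 0 passed. In the 8 libraries with a dominant gene, which hold WSD 20, the median was -0.67. Of the 48 members tested there, 2 were lower at an unadjusted p under 0.05 and 0 passed. Neither fit called any gene, and how many of all genes were under the unadjusted threshold was not counted. With the mesothelial level as a covariate 0 members passed, in a fit that called 1 gene, and the median was -0.64. With the adipocyte level as a covariate 30 members passed, all lower, with a median of -0.59. That fit called 3.16% of all genes lower. On the log2 scale this covariate was at -2.72 in C 1 and at -0.49 in T 13, the next lowest animal. Without C 1 alone and with no covariate, 15 members passed as lower, beside 185 of 15330 genes.

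The 2 treatments together were compared with neither. In T+WSD against C, 2 members were lower and 0 higher (edgeR adjusted p under 0.05), in a comparison that called 9.94% of all genes lower, and the share of members called was below that of all genes. They were ATP5MC2, a subunit of ATP synthase, and ATP5IF1, its inhibitor. The median over members was -0.12 (all genes, -0.04), with 40 of 49 estimates negative, and neither call exceeded a fold change of 1.5.

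ATP5MC2 measured 87.5, 107.7 and 127.7 CPM in C and 73.6, 78.6 and 83.8 CPM in T+WSD. It fell by 0.44 ± 0.11 on the log2 scale (adjusted p = 0.0101, edgeR). ATP5IF1 (ENSMMUG00000018678), the inhibitory factor that binds ATP synthase when the gradient collapses, measured 25.4, 26.7 and 33.9 CPM in C and 20.7, 22.01 and 23.9 CPM in T+WSD, with a log2 fold change of -0.37 ± 0.10 (adjusted p = 0.0169, edgeR). In both genes all 6 T+WSD animals lay below all 6 C animals, which was so for 2 of 49 members and 4.12% of all genes. In neither gene was C 1 the lowest of the controls or WSD 20 and 24 together the highest animals.

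ATP5MC2 was also below T in every animal, the single member called in T+WSD against T (-0.49 ± 0.11, adjusted p = 0.0151, edgeR), and was at 0.04 ± 0.11 in WSD against C (adjusted p = 0.892, edgeR). These comparisons share the T+WSD animals and are not independent. ATP5MC2 remained called against C when any 1 of the 24 animals was left out, and ATP5IF1 in 23 of 24 cases, the exception being C 1. Without C 1, WSD 20 and WSD 24 together ATP5MC2 was at -0.42 ± 0.10 (adjusted p = 0.0141, edgeR) and ATP5IF1 at -0.32 ± 0.11 (adjusted p = 0.0591, edgeR).

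The mesothelial list moved with this comparison, with 9 of its 11 markers lower in T+WSD than in C, and so did the endothelial list, with 7 of 10 higher and summed levels of 1070 to 1796 CPM in C and 2028 to 3137 CPM in T+WSD. The part of the endothelial list in the result was not tested. With the mesothelial level as a covariate neither gene passed, at -0.37 ± 0.17 for ATP5MC2 and -0.18 ± 0.15 for ATP5IF1 (adjusted p = 0.9995 for both, edgeR). That fit called 0 of all 15207 genes. With the adipocyte level as a covariate neither passed, at -0.44 ± 0.12 and -0.26 ± 0.11 (adjusted p = 0.0867 and 0.201, edgeR), in a fit that also called 0 genes. Members lower at an unadjusted p under 0.05 numbered 23 with it and 3 without. Of all 15207 genes, 2798 were lower at that threshold without it. Those with it were not counted, so the 23 cannot be set against a share of all genes. Neither passed in the 16 libraries without a dominant gene, at -0.42 ± 0.14 and -0.34 ± 0.13 (adjusted p = 0.117 and 0.146, edgeR), nor in the 8 with one (-0.42 ± 0.17 and -0.37 ± 0.19). These 2 fits called 0.544% and 0% of all genes. The median over members was -0.19 in the 16 libraries and 0.05 in the 8. The 8 hold 2 controls, among them C 1, the lowest of all animals in 36 members. The batch and this animal therefore cannot be told apart in the sign. Without C 1 alone the median over the remaining libraries was -0.18.

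When C 1, WSD 20 and WSD 24 were left out, 5 members passed as lower in T+WSD than in C, beside 5.54% of all genes, among them SDHA (-0.36 ± 0.12, adjusted p = 0.0497), SDHD (-0.44 ± 0.12, 0.0267), UQCRC2 (-0.41 ± 0.12, 0.0362) and ATP5MC2 (0.0141, all edgeR). With all animals SDHD was the nearest of these besides ATP5MC2, at -0.36 ± 0.17 (adjusted p = 0.144, edgeR).

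Testosterone alone was compared with C, the comparison with the smallest median over members. In T against C no member passed in either direction (edgeR adjusted p under 0.05), nor did any gene (0% of all tested genes), and 0 members were below an unadjusted p of 0.05, against 8.62% of all genes. DESeq2 called 0 members as well. The median was 0.09 (all genes, -0.02) with 36 of 49 estimates positive, and it was -0.11 in the 16 libraries without a dominant gene, 0.53 in the 8 with one and 0.02 without C 1, WSD 20 and WSD 24, so no direction can be given. The smallest adjusted p was 0.595, for COX7C of complex IV (0.46 ± 0.24, edgeR). In T, animal 14 carried the highest member level (0.43).

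Diet on top of testosterone, T+WSD against T, called 1 member lower, ATP5MC2, beside 3.20% of all genes. At an unadjusted p under 0.05, 6 members were lower, against 14.3% of all genes, and the median was -0.20 (all genes, -0.03) with 44 of 49 estimates negative. It was -0.06 in the 16 libraries without a dominant gene and -0.40 in the 8 with one, and 0 members passed in either. These fits called 217 and 0 genes lower. ATP5MC2 measured 92.9, 109.4 and 132.7 CPM in T (lowest, median and highest), and every T+WSD animal lay below every T animal. That pattern was held by 2 of 49 members and 472 of 15207 genes.

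Whether testosterone acted differently on the 2 diets was tested by the interaction of testosterone and diet, with an adjusted p under 0.1. It was negative for 2 members and positive for 0, beside 0.289% of all genes negative. NDUFV1 (ENSMMUG00000018526), the NADH-binding subunit of complex I, had a log2 interaction of -1.13 ± 0.29 (adjusted p = 0.0965, edgeR). At an unadjusted p under 0.05, 34 members were negative, against 7.26% of all genes. All 49 estimates were negative with a median of -0.61 (all genes, -0.02).

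NDUFV1 had means of 115.7 ± 25.4 CPM for C animals, 147.9 ± 41.2 for T, 185.5 ± 66.2 for WSD and 108.4 ± 10.9 for T+WSD (SD, n = 6). The means were higher with either treatment than in C and lowest with both. Without WSD 20 and 24 no member passed, with NDUFV1 at -0.76 ± 0.24 (adjusted p = 0.318, edgeR) and a median over members of -0.35. The median was -0.36 in the 16 libraries without a dominant gene and -1.17 in the 8 with one, and 0 members passed in either. None of these fits called any gene negative.

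Within complex I, the 7 core subunits fixed as a list, which carry out its electron transfer, had 6 genes tested. Their median was 0.58 in WSD against C and -0.76 in T+WSD against WSD, beyond the medians of 0.47 and -0.53 of all 23 complex I members. In the interaction it was -0.93. Without WSD 20 and 24 these medians of the core list were 0.20, -0.39 and -0.52. NDUFA4L2, an inducible relative of NDUFA4 known from hypoxia, did not follow them. Its lowest, median and highest values were 4.27, 11.52 and 18.8 CPM for C animals, 7.002, 12.6 and 15.5 for T, 6.75, 14.9 and 22.03 for WSD and 10.1, 15.4 and 20.3 for T+WSD, with overlapping groups throughout. Among the 3 tested isoforms and regulators (NDUFA4L2, ATP5IF1 and COX7A1, the muscle and heart form of a complex IV subunit), the single call was ATP5IF1 in T+WSD against C. The median of COX7A1 was 49.5 CPM for C animals, 40.2 for T, 55.5 for WSD and 42.2 for T+WSD.

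Carriers and structural genes of the inner membrane, from lists chosen for their role, had medians close to those of the subunits. The electron carriers and adenine nucleotide transport genes had 9 of 12 genes tested, with a median log2 fold change of 0.42 in WSD against C and -0.48 in T+WSD against WSD. In the latter 3 passed as lower and 0 higher, beside 0.940% of all genes lower. They were CYC1, the cytochrome c1 subunit of complex III (-0.98 ± 0.23, adjusted p = 0.0370), the outer-membrane pore VDAC2 (-0.56 ± 0.14, 0.0398) and the phosphate carrier SLC25A3 (-0.48 ± 0.12, 0.0401, all edgeR). CYC1 ran from 138.6 to 340.1 CPM in WSD and from 94.9 to 127.1 CPM in T+WSD without overlap. Prohibitin and cristae genes had 10 tested, with medians of 0.44 and -0.50, and 1 passed as lower, the inner-membrane scaffold PHB2 (-0.62 ± 0.12, adjusted p = 0.0179, edgeR).

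Genes that build the chain were described in the same way. T+WSD against WSD called 0.940% of all genes lower. There, mitochondrial ribosomal proteins had 6 of 44 tested genes lower and 0 higher, with a median of -0.34. Import genes had 2 of 13 lower (TIMM44 and TOMM40, median -0.35) and assembly factors 3 of 35 (SDHAF2, NDUFAF4 and ECSIT, median -0.33). The medians of these lists in WSD against C were 0.25, 0.29 and 0.22 in the same order, with 0 passed in each. In T+WSD against C, 5 ribosomal proteins were lower (MRPL11, MRPL17, MRPL47, MRPS18C and MRPS30), as were 2 import genes and 1 assembly factor, with medians of -0.16, -0.12 and -0.11, in the comparison that called 9.94% of all genes lower. Without WSD 20 and 24 no gene of the carrier, cristae, ribosomal, import or assembly lists passed in T+WSD against WSD, where no tested gene did. The list medians were -0.21, -0.24, -0.24, -0.22 and -0.17 in that order, beside -0.23 for the subunits. In the same fit 7 ribosomal proteins, 2 import genes and 2 assembly factors were lower in T+WSD than in C, beside 1636 of 15528 genes. Whether these lists differ from the subunits was not tested.

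Regulators of respiratory genes had 14 of 19 genes tested and none passed in any of the 6 comparisons with all animals (edgeR). At an unadjusted p under 0.05, 4 were lower in T+WSD against WSD, beside 12.1% of all genes. The median was 0.02 in WSD against C and -0.17 in T+WSD against WSD. The nuclear receptor ESRRA measured 33.8, 43.0 and 87.5 CPM in WSD and 29.1, 30.1 and 34.6 CPM in T+WSD, with a log2 fold change of -0.67 ± 0.19 (adjusted p = 0.0656, edgeR). PPARGC1A measured 18.8, 24.3 and 78.0 CPM in WSD and 12.2, 17.2 and 19.2 CPM in T+WSD (-0.99 ± 0.33, adjusted p = 0.0983, edgeR). Without WSD 20 and 24 the log2 fold changes were -0.32 ± 0.15 for ESRRA (adjusted p = 0.427) and -0.48 ± 0.28 for PPARGC1A (0.525, both edgeR). In that fit 1 regulator, ESRRA, was lower in T+WSD than in C (-0.41 ± 0.13, adjusted p = 0.0373, edgeR) and than in T (-0.54 ± 0.13, adjusted p = 0.0214, edgeR). The same fit called 1636 of 15528 genes lower than in C and 672 lower than in T. In the 16 libraries without a dominant gene 1 regulator, YY1, was lower in T+WSD than in T (-0.32 ± 0.08, adjusted p = 0.0448, edgeR), beside 217 of 15448 genes. With the adipocyte level as a covariate ESRRA, PPARGC1A and POLG, the mitochondrial DNA polymerase, were lower in T+WSD than in WSD (adjusted p = 0.0196, 0.0333 and 0.0285, edgeR), and ESRRA also than in T (adjusted p = 0.0296, edgeR). The fit with this covariate called 481 of 15207 genes lower than in WSD and 336 lower than in T. WSD 20 was the highest of the 24 animals in ESRRA and PPARGC1A, and WSD 24 was at 26.9 CPM in PPARGC1A and 55.1 CPM in ESRRA. The groups shared a narrow overlap in both genes. NRF1 was at 0.05 ± 0.14 (adjusted p = 0.882, edgeR).

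**Figure D5:**
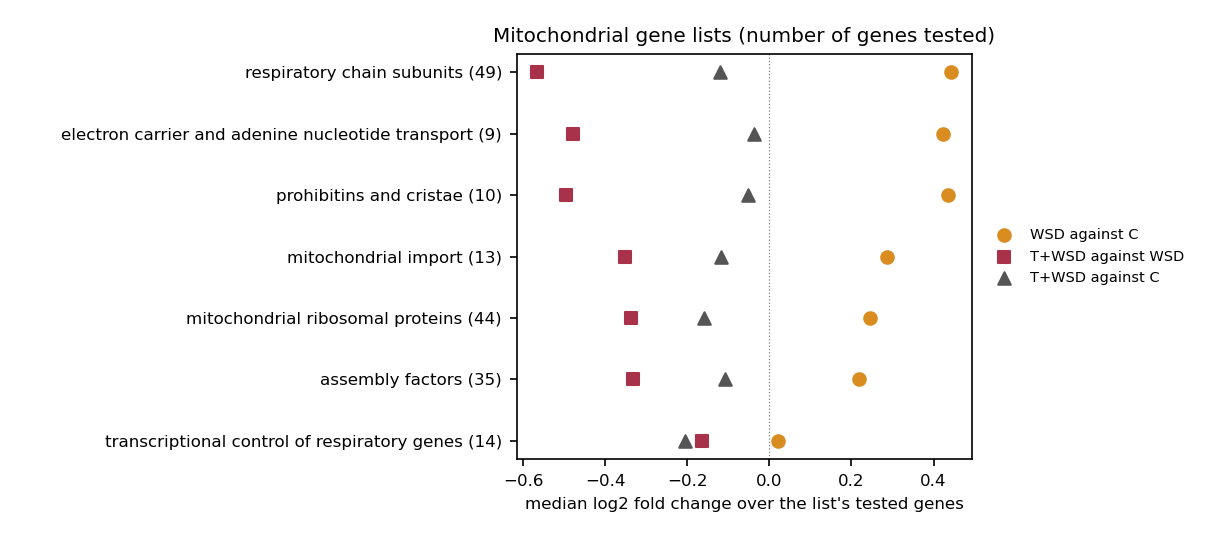
Symbols give the median log2 fold change over the tested genes of each list (number tested in brackets; edgeR) in 3 comparisons that share animals. For the 49 subunits the medians are 0.44 in WSD against C, -0.57 in T+WSD against WSD and -0.12 in T+WSD against C; the carrier and cristae lists lie close to them and the list of transcriptional regulators lies nearest to 0 in the first 2 (0.02 and -0.17) and furthest from it in the last (-0.21).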

How the data were processed

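The authors sequenced ribosomal RNA-depleted libraries from omental WAT as single reads and deposited raw counts per gene for 24 animals, without normalization. The submitters' processing notes name FastQC 0.11.5, Trimmomatic 0.36, STAR 2.5.2b and DESeq2 1.18.1, and the paper names the build rheMac8; the counting tool and its strand setting are not given in the sources used here, so overlapping, antisense and near-identical genes are uncertain. Symbols came from a gene name table. The members and lists were chosen with earlier results of these data known. Counts were filtered (filterByExpr, minimum count 10, minimum total 15), scaled by TMM, and differences were tested in edgeR 4.0.16 under R 4.3.3 (quasi-likelihood F-test, robust=TRUE, legacy=TRUE) in 1 fit of 4 groups, with two-sided p values adjusted by Benjamini-Hochberg over 15207 genes. CPM are TMM-normalized. Standard errors are the log2 fold change divided by the square root of F. The test was checked on simulated data. Members named in the text were fixed subunits and isoforms, the 3 smallest p values per complex in each of 4 comparisons, and every interaction call; other members and list genes were named after their values were seen. Alternatives were DESeq2 1.42.0, RLE and upper-quartile normalization, other filters, only the groups compared, the library batch left out or as a term, marker levels as covariates, library sizes without the most abundant gene, and each animal left out. Fits without C 1, WSD 20 and WSD 24, and on the 8 libraries alone, were chosen after seeing the data. Marker lists were adipocyte, mesothelial, macrophage, endothelial, skeletal muscle and brown adipocyte genes. Genome sequence was not used here. Counts and medians cover all 49 members, but 1 member is not reported here by itself.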

Additional observations from a re-analysis of the deposited data

Results flagged for a closer look

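Within-group outliers were sought with Dixon's test in 168 groups of 6 animals, 24 for the complex levels and 144 for single members, and chance alone marks about 1 in 20 such groups. C animal 1 lay apart from the other controls in 4 levels, at -0.71 on the log2 scale for all members, -0.73 for complex I, -0.92 for complex III and -0.99 for complex IV. It was also apart in 7 single members, at 379.2 CPM for ATP5F1A, 92.2 for ATP5F1B, 65.9 for ATP5F1C, 25.3 for COX5A, 16.1 for COX7A1, 31.1 for NDUFS7 and 94.8 for UQCRC1, each the lowest of the controls. T+WSD animal 12 was the highest of its group in ATP5F1A (649.7 CPM) and UQCRC2 (185.2 CPM), animal 9 in NDUFA11 (59.5 CPM) and animal 8 in UQCRH (27.97 CPM). T animal 14 was apart in NDUFS1 (282.9 CPM) and WSD animal 20 in UQCRB (151 CPM).

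The effect of testosterone differed between the diets for NDUFV1, with a log2 interaction of -1.13 (adjusted p = 0.0965, edgeR). The call was kept in 7 of the 24 fits that left out 1 animal and in 6 of 13 other settings, and was lost, among others, with RLE or upper-quartile normalization, without any 1 of the T+WSD animals and without WSD 20 and 24. The estimate lay between -1.44 and -0.66 in all of these fits.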

How the results depend on the processing

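Counts of members passed moved by more than 1.5 times in the fits below; the cause was not tested. T+WSD against WSD (5) gave 16 with DESeq2, 30 with the adipocyte covariate, 3 with RLE, upper-quartile, no filter or the batch as a term, and 0 with only the groups compared, with the mesothelial covariate, without or only with the 8 libraries, without WSD 20 and 24, and without C 1, WSD 20 and WSD 24; leaving out 1 animal gave 0 to 16 (0 without WSD 20, WSD 24 or any of T+WSD 7 to 11, 16 without WSD 19 or 21). T+WSD against C (2) gave 0 over 1.5-fold, with either covariate and in either batch, 5 without C 1, WSD 20 and WSD 24, and 1 to 2 with 1 animal left out (1 without C 1). WSD against C (0) gave 3 with DESeq2 (0 with DESeq2 without WSD 20 and 24) and 0 to 1 with 1 animal left out (1 without WSD 19). T+WSD against T (1) gave 0 over 1.5-fold, with the mesothelial covariate and in either batch, 3 with only the groups compared or the adipocyte covariate, 2 without WSD 20 and 24, 5 without C 1, WSD 20 and WSD 24, and 1 to 1 with 1 animal left out. The interaction (2) gave 8 with DESeq2, 1 with RLE, upper-quartile or the mesothelial covariate, 0 at an adjusted p under 0.05, with no filter, in either batch, without WSD 20 and 24 and without all 3 animals, and 0 to 9 with 1 animal left out (0 without C 1, 3, 5 or 6, T 13 to 16, WSD 20 or 24 or any T+WSD animal, 9 without WSD 21). T against C gave 0 in every fit run. Counts of all genes called lower also moved between these fits. In T+WSD against WSD they were 414 of 25048 with DESeq2 and 481 of 15207 with the adipocyte covariate. They were 239 of 15348 without WSD 19 and 529 of 15324 without WSD 21. In T+WSD against T, 917 of 14565 genes were lower with only the groups compared and 336 of 15207 with the adipocyte covariate. Without WSD 20 and 24 the count was 672 of 15528, and without all 3 animals 827 of 15494. The interaction was called negative for 192 of 25048 genes with DESeq2 and 251 of 15324 without WSD 21. No called member changed sign in any fit. No paired analysis was possible because the groups share no replicate numbers. Fits without WSD 20 and 24 (DESeq2 included), without all 3 animals and on the 8 libraries alone were chosen after seeing the data. Depth limited SDHC, with 3 to 26 counts per library.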

Other observations

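UCP1, which uncouples the proton gradient in brown adipocytes, was low in most animals and high in a few. It ran from 0 to 11.48 CPM in C (median 0.335), from 0.0676 to 39.5 CPM in T (median 1.61), from 0.0407 to 44.96 CPM in WSD (median 2.77) and from 0.0859 to 4.08 CPM in T+WSD (median 0.938). The 4 highest animals were WSD 20 (44.96 CPM), T 14 (39.5 CPM), C 2 (11.48 CPM) and WSD 24 (9.14 CPM), and C 1 was at 0. WSD 20, WSD 24 and T 14 were also the 3 animals with the highest level over the respiratory chain members (0.88, 0.74 and 0.43 on the log2 scale). C 2, which was above WSD 24 in UCP1, had a member level of 0.09. UCP1 did not pass in any comparison (T+WSD against WSD, -2.77 ± 1.48, adjusted p = 0.304, edgeR). The brown adipocyte genes DIO2, ZIC1 and PRDM16 had at most 1 count in any library, and of the brown list only UCP1 and EBF2 were tested. In T+WSD against WSD the estimate was negative for UCP1 and positive for EBF2.

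Of the other marker lists, 1 of 10 macrophage genes was higher in T+WSD against T (TREM2) and 0 passed against C or WSD, and 1 of 14 adipocyte genes was higher in T+WSD against C (LEP). Of the skeletal muscle list 5 of 9 genes were tested, and TNNT3 was higher in T+WSD than in C (0.83 ± 0.26, adjusted p = 0.0318) and than in WSD (1.03 ± 0.26, adjusted p = 0.0471, both edgeR), with a summed list level of 29.2 to 83.5 CPM in T+WSD and 14.9 to 35.0 CPM in WSD. UCP2 was the other uncoupling protein tested, at -0.28 ± 0.38 in T+WSD against WSD (adjusted p = 0.724, edgeR).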
